A study of Mus musculus with 6 samples.

Results

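A sharp boundary of methylation is here a pair of neighbouring measured cytosines, 3 to 200 bp apart, of which one was methylated on average under 10% and the other over 80%. The pairs were chosen by the mean of all 6 libraries, so that their number, levels and step (the level of the high cytosine minus that of the low cytosine, in percentage points) over the 6 libraries describe the choice and are given without a test. The choice did not use the housing of the mice, but a pair can pass the limits through the values of 1 group. The difference between housing groups was tested. The rule found 476 boundaries among 561439 neighbouring pairs of the autosomes (0.0848%), on all 19 autosomes. The study housed female C57BL/6JRj mice in standard cages (STD, 3 mice) or in an enriched environment (ENR, 3 mice) for 3 months from 6 weeks of age and sampled the dentate gyrus at 4.5 months. The animals carried no allele or agent that the labels name, and housing was the only labelled difference between the groups. Methylation was read by reduced representation bisulfite sequencing (RRBS), 1 library per mouse, and the data hold a methylation percentage for 866851 autosomal cytosines in each of the 6 libraries. The dentate gyrus was dissected as tissue, so that a change in the mixture of cells and a change of methylation within cells cannot be told apart. Read numbers behind each percentage are unknown beyond the minimum of 10 reads per cytosine, and this number limits the precision of every single value.

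In most mammalian cells CpG dinucleotides are methylated, while CpG-dense stretches at gene starts, the CpG islands, stay free of methylation. The edges between both states are set where DNA methyltransferases, demethylating enzymes and the proteins bound at islands meet, and methylation normally changes over many neighbouring CpGs rather than from one CpG to the next. RRBS cuts DNA at CCGG with MspI. The staggered ends are filled in with unmethylated cytosines before sequencing, so that a cytosine at the far end of a short fragment can carry the filled-in base instead of the genomic one.

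The sequences of the boundaries (GRCm38, plus strand, with the CpG of both measured cytosines in capitals) show where in a fragment the pairs lie. The first 3 are MspI fragments drawn from the CCGG cut that precedes the low cytosine up to just past the cut in which that cytosine lies. They are shown because this arrangement held the largest group of boundaries, and they are named by the nearest protein-coding start.
Peli2, chr14:48054298-48054379: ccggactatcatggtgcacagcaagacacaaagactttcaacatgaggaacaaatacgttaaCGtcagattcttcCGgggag
Fam174b, chr7:73692717-73692798: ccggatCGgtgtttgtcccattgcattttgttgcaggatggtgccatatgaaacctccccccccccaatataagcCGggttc
Papss1, chr3:131720332-131720414: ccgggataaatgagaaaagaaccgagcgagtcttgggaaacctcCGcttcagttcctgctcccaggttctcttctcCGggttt
In each of the 3, the low cytosine is the second capital pair, in a CCGG, and the high cytosine is the first, inside the fragment on the minus strand. A second set is shown because the low cytosine lies outside CCGG, in or near genes that the results name.
Dohh, chr10:81385743-81385778: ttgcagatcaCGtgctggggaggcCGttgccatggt
Cnn2, chr10:79994365-79994418: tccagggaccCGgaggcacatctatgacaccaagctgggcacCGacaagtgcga
Maml2, chr9:13534736-13534793: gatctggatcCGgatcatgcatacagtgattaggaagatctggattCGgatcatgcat
Sgk1, chr10:21881733-21881842: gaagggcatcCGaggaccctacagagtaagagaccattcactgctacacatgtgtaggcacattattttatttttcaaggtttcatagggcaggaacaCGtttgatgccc
Fgfr1, chr8:25514016-25514118: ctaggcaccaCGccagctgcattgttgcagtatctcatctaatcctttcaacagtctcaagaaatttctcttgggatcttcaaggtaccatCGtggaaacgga
Nkx2-2, chr2:147183148-147183186: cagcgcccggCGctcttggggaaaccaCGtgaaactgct
In Dohh the left CpG was the low one, and in the other 5 the right CpG was the low one.

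The step was large in every library. The mean level of the low cytosines lay between 3.66% (ENR replicate 3) and 6.00% (STD replicate 1), and that of the high cytosines between 90.8% (STD replicate 2) and 92.3% (ENR replicate 2). The mean step was 85.7, 86.2 and 86.8 percentage points in the STD libraries and 86.5, 87.9 and 87.2 in the ENR libraries, and the ranges of the groups overlap. In 416 boundaries (87.4%) the step exceeded 50 points in all 6 libraries, in 52 it was smaller in exactly 1 library and in 4 in 2 or more, and in the remaining 4 it was exactly 50 in at least 1. The stricter demand that every single library meet both limits was fulfilled by 89 boundaries (18.7%). The low cytosine was at 0 in all 6 libraries in 69 boundaries and the high cytosine at 100% in all 6 in 13. Values at exactly 0 were most frequent in ENR replicate 3, ENR replicate 2 and STD replicate 3 (352, 302 and 288 low cytosines) and least frequent in STD replicate 1 (196).

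**Figure D1:**
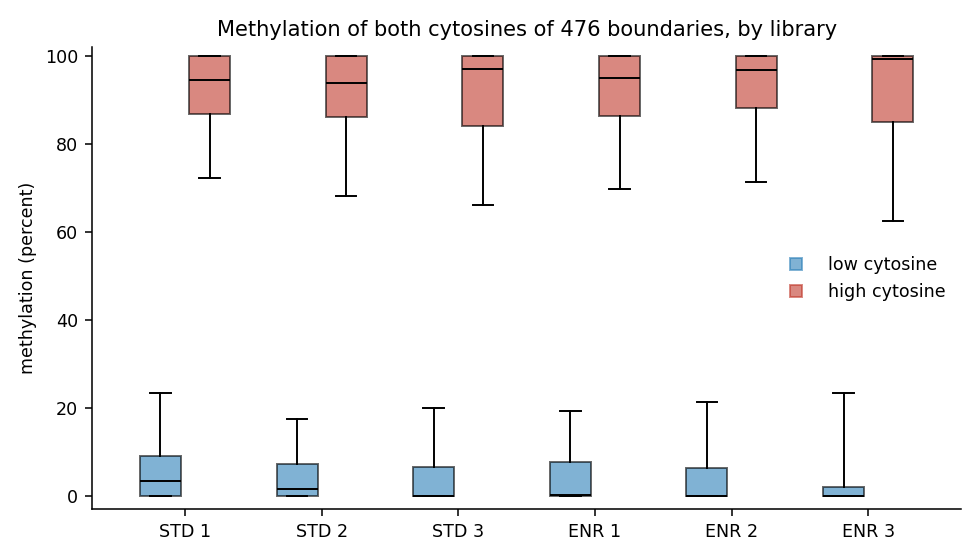
Methylation percentage (y axis) of the low and the high cytosine of the 476 boundaries in each of the 6 libraries (x axis). Boxes span the quartiles with the median as a line, whiskers leave out the lowest and highest 5% of the values, and the boxes of both sides stay apart in every library, with library means of 3.66% to 6.00% and 90.8% to 92.3%.

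A pair chosen for an extreme mean shrinks in a library that took no part in the choice, and the size of that loss was measured. With the boundaries chosen on 5 libraries (488 to 521 pairs, depending on the library left out), the mean step in the sixth was 79.9 to 82.4 points, and 88.1% to 92.2% of the pairs kept a step over 50 points there. Between 57.2% and 60.1% met both limits in the sixth library, and in 0 to 3 pairs the order of both cytosines was turned. The 543 pairs chosen on the STD libraries alone had mean steps of 78.7, 78.5 and 77.8 points in the ENR libraries, against 86.1 to 88.8 in the STD libraries that chose them. The 652 pairs chosen on the ENR libraries alone had mean steps between 73.8 and 75.1 points in the STD libraries. The sets shared 293 pairs, which were 54.0% of the STD set and 44.9% of the ENR set.

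The boundaries were wider than the usual neighbouring pair. Their median spacing was 37 bp (quartiles 17 and 73.3 bp, shortest 3, longest 197), against 14 bp over all neighbouring pairs. In 430 of them (90.3%) no further CpG lay between both cytosines, as in 92.0% of all pairs and 90.7% of pairs with a step of 30 to 70 points. The low cytosine had the lower coordinate in 233 and the higher in 243. Both cytosines were on the same strand in 306 boundaries (64.3%, against 73.9% of all pairs). The 476 pairs used 923 different cytosines and lay at 418 loci when boundaries at most 200 bp apart were joined, of which 51 held 2 or more and none more than 4. They occurred on all 19 autosomes, at 0.370 (chromosome 15) to 1.18 (chromosome 10) per 1000 neighbouring pairs.

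The low cytosine lay in a CCGG cut site more often than the high cytosine, as it did in pairs with a smaller step. Of the low cytosines, 335 (70.4%) were cut site cytosines, against 104 (21.8%) of the high ones. In the 18654 pairs with a mean step of 30 to 70 points the shares were 61.2% and 16.5%. Over all autosomal cytosines the order was the other way round, since 19.8% of those under 10% and 44.8% of those over 80% were cut site cytosines. The low cytosines in cut sites also had a preferred place: 178 of them were the 75th or the 76th base of their fragment, counted from the cut that precedes them on their own strand (72 and 106 low cytosines). These 2 bases were singled out after the values were seen, and the boundaries were split accordingly into 178 with the low cytosine at base 75 or 76 of a cut site, 157 in a cut site elsewhere and 141 outside cut sites.

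Bases 75 and 76 stood apart over the whole data as well. Reads were 75 bp long and single-end, and cytosines outside cut sites ended at base 76 (6131 there, 15 at base 77). Cut site cytosines numbered 1876 at base 75 and 2171 at base 76, against 713 per base from 65 to 74 and 555 per base from 77 to 86. Their mean methylation was 11.1% at base 75 and 13.4% at base 76, against 24.1% from base 65 to 74 and 19.9% from base 77 to 86. Only 2.50% of the cut site cytosines at both bases were over 80%, against 14.4% and 11.0% in those 2 neighbouring ranges. They made up 0.467% of all autosomal cytosines and gave 178 of the 476 low cytosines (37.4%), while the 10 bases before gave 3 and the 10 bases after gave 7. In the study, 2 further bases were cut from reads in which an adapter had been detected. The part of this step in the values was not tested, since the reads were not used here.

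**Figure D2:**
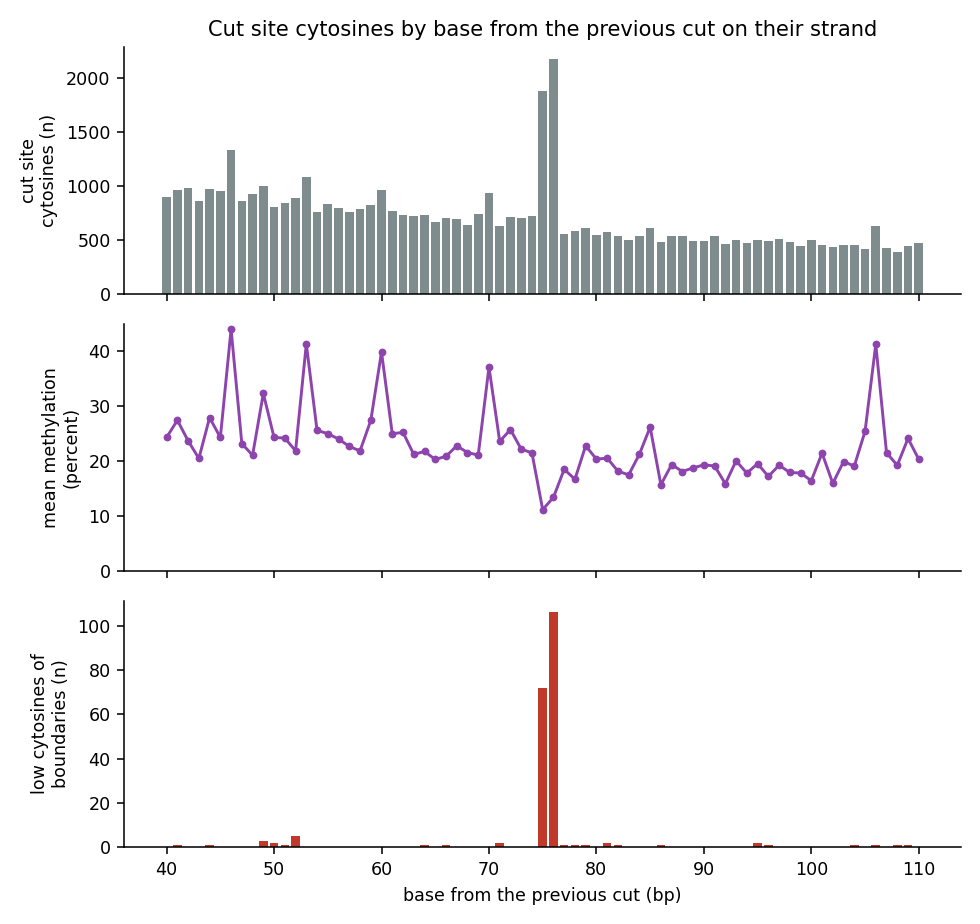
Cut site cytosines by their base from the previous cut on the same strand (x axis, bp): their number, their mean methylation over the 6 libraries in percent, and the number that are the low cytosine of a boundary. Bases 75 and 76 hold 1876 and 2171 cytosines at means of 11.1% and 13.4%, and 72 and 106 low cytosines.

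The other strand of the same CpG read differently at these bases. It was covered for 84 of the 178 low cytosines at base 75 or 76, and its median level was 90.6% (lowest 25.3%, highest 100%). In 57 of the 84 the other strand was over 80%, and in 0 under 10%, and 0 of the 84 other-strand cytosines belonged to a boundary themselves. The mean of the 84 low cytosines was 5.08%, and that of the other strand 82.8%, with 83.7%, 85.5% and 80.6% in the STD libraries and 85.2%, 83.6% and 77.9% in the ENR libraries. At the high cytosines of the same boundaries the other strand was covered in 82, of which 22 were high or low cytosines of a boundary themselves. Over the other 60 the means were 92.7% on the chosen strand and 91.5% on the other. The Peli2 fragment printed above had a low cytosine at 3.72%, 5.82% and 0% in STD and at 5.17%, 4.96% and 0% in ENR, while the other strand of this CpG averaged 99.8%. The Fam174b fragment averaged 3.63% on the measured strand and 89.3% on the other, and the Papss1 fragment 4.51% and 83.9%.

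Cut site CpGs that belong to no boundary and whose other strand was over 80% showed the same split by base. At base 75 or 76, 202 such CpGs averaged 32.3% on the strand at that base and 92.4% on the other, and the difference was -60.1 ± 4.99 percentage points (SD over libraries, n = 6; range -64.0 to -51.6). At bases 65 to 74 the 240 such CpGs averaged 90.7% and 92.4%, a difference of -1.75 ± 0.521 (SD, n = 6), and at bases 77 to 86 the 218 such CpGs averaged 92.3% and 93.0%, a difference of -0.712 ± 1.43 (SD, n = 6). The difference between the strands was larger in size at base 75 and 76 than in either neighbouring range in each of the 6 libraries.

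The other strand of the remaining boundaries had lower medians. With the low cytosine in a cut site elsewhere, the other strand was covered in 31, with a median of 17.9%, 8 under 10% and 8 over 80%. With the low cytosine outside cut sites it was covered in 8, with a median of 21.3%, 2 under 10% and 1 over 80%, and the last belonged to a boundary itself.

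**Figure D3:**
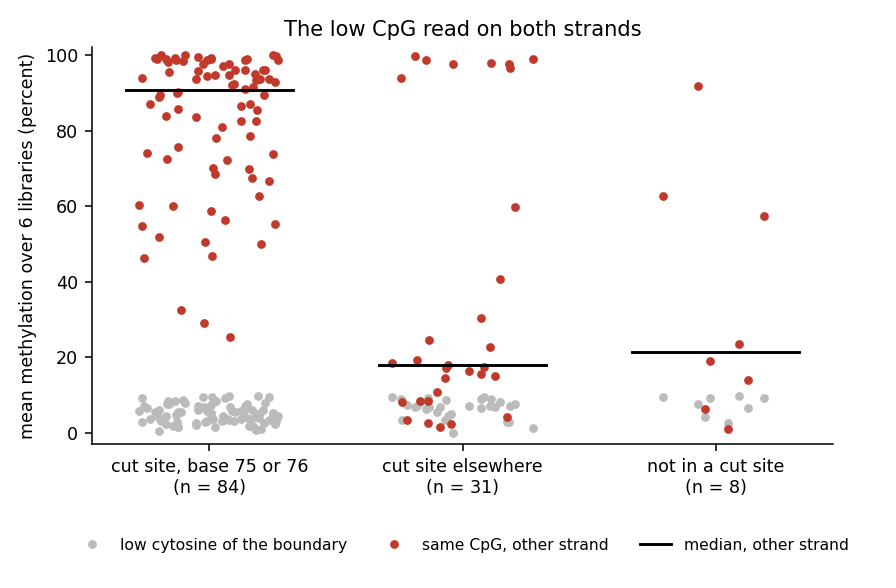
Mean methylation over the 6 libraries (y axis, percent) of the low cytosine of a boundary (grey) and of the other strand of the same CpG (red), for low cytosines at base 75 or 76 of a cut site (n = 84), in a cut site elsewhere (n = 31) and outside cut sites (n = 8). Black lines are the medians of the other strand, 90.6%, 17.9% and 21.3%.

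The boundaries without a cut site at the low cytosine lay in repeats more often than the others. In 73 of these 141 (51.8%) the low cytosine was in sequence that the reference marks as repeat, against 28.03% in cut sites elsewhere, 29.8% at base 75 or 76 and 8.60% of the low sides of all neighbouring pairs. Repeat cytosines are mostly methylated in these data: 60.3% of the 79133 autosomal repeat cytosines were over 80% and 21.98% under 10%, and 9.70% were at 0 in all 6 libraries. Among the 70 boundaries outside cut sites with both cytosines in repeats, 38 had a low cytosine at 0 in all 6 libraries, against 17 of the 71 others. A further share of the low cytosines could not be reached by a read from a reference cut. Of the 141, 34 (24.1%) lay beyond base 76 of their fragment, against 0.111% of all autosomal cytosines outside cut sites, and 29 of the 34 were in repeats. In 36 boundaries at least 1 cytosine outside cut sites lay beyond base 76, and 23 of these had a low cytosine at 0 in all 6 libraries. Copies of a repeat that share reads, and bases at which the mice differ from the reference, were not tested here.

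One member was no CpG in the reference at all. It lay in an intron of Sntb1 (a syntrophin of the dystrophin complex; chr15, low cytosine at 55872243, minus strand), 34479 bp from the nearest protein-coding start, and was at 0 in all 6 libraries. Its high partner, 68 bp away, was at 94.2%, 98.7% and 94.7% in STD and at 98.5%, 98.1% and 91.2% in ENR. The remaining members were CpGs.

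Boundaries were rare at transcription starts. The low cytosine lay within 1 kb of the start of any annotated transcript in 58 of 476 boundaries (12.2%), against 63.1% of all neighbouring pairs and 18.8% of the 18654 pairs with a mean step of 30 to 70 points. The share was 9.55% (17) with the low cytosine at base 75 or 76, 13.4% (21) in cut sites elsewhere and 14.2% (20) outside cut sites. The median distance to a start was 11223 bp, against 403 bp for all pairs. The low cytosine was in an exon in 64, in an intron in 174 and outside genes in 238 boundaries (50%), and 27.3% of all pairs were outside genes. The measured cytosines of RRBS are concentrated at gene starts, so that most neighbouring pairs lie there already by the design of the assay.

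**Figure D4:**
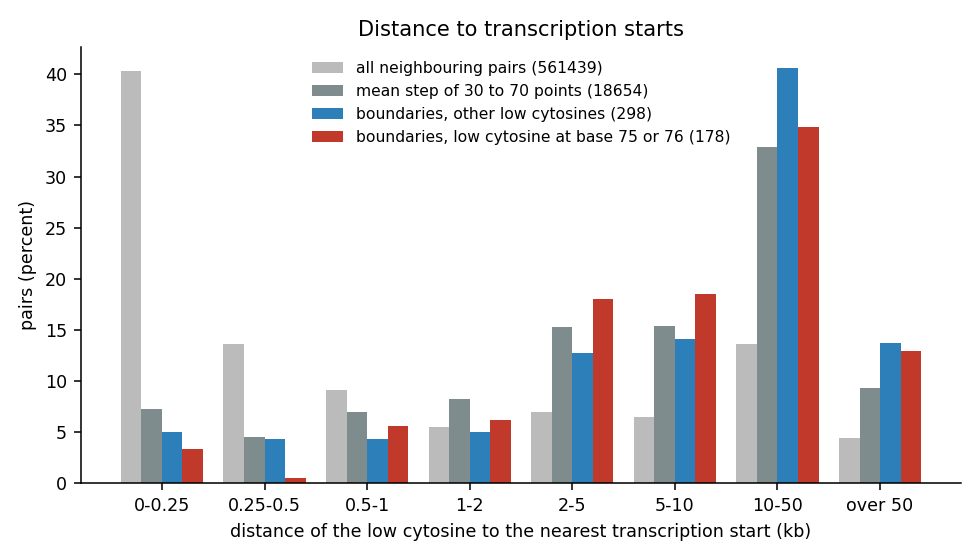
Share of pairs (y axis, percent) by the distance of the low cytosine to the nearest transcription start (x axis, kb), for all neighbouring pairs, pairs with an intermediate step and both kinds of boundaries. All pairs peak within 0.25 kb, whereas the boundaries have their highest bar at 10 to 50 kb.

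The orientation of the boundaries near starts was counted for each kind. Leaving out those with the low cytosine at base 75 or 76, 41 boundaries lay within 1 kb of a start, and in 39 of them the start was outside the pair. In 34 of these 39 (87.2%) the low cytosine faced the start, against 52.4% of all neighbouring pairs and 54.4% of the pairs with a step of 30 to 70 points. Counted against protein-coding starts the numbers were 22 of 26 (84.6%), and within 2 kb of any start 44 of 54 (81.5%). Within 5 kb it was 58 of 92 (63.0%), where all pairs gave 52.0%. With the low cytosine at base 75 or 76 it faced the start in 8 of 15. The 41 boundaries belonged to 41 different genes, with the low cytosine upstream of the start in 19 and downstream of it or on it in 22.

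The nearest measured cytosine beyond a pair took no part in the choice of that pair, but one over 80% next to a low cytosine, or under 10% next to a high one, mostly forms another boundary by the rule. The levels beyond the pair are therefore a description. Of the 158 such cytosines beyond a low one, 50 belonged to another boundary, among them 47 of the 53 over 80%, and of the 358 beyond a high one 36 did, among them 35 of the 36 under 10%. At the 41 boundaries near starts, the nearest measured cytosine beyond the low one (within 200 bp) was present in 28, with a median of 11.7%, 12 under 10% and 1 over 80%, and 0 of the 28 belonged to another boundary. Over these boundaries the mean level beyond the low side was 21.2% ± 4.97 in STD and 20.1% ± 6.94 in ENR (SD, n = 3 libraries each), and that beyond the high side 47.7% ± 4.39 and 48.1% ± 3.73. At the 257 boundaries farther from starts, of the 128 with a measured cytosine beyond the low one, 26 were under 10% and 50 over 80% (47 of the 50 belonged to another boundary), with a mean of 52.5% ± 1.44 in STD and 51.7% ± 1.91 in ENR (SD, n = 3). Beyond their high side the mean was 63.5% ± 3.09 and 63.4% ± 4.18 (SD, n = 3). At base 75 or 76 only 2 of 178 boundaries had a measured cytosine beyond the low one, and both were over 80%.

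In 121 boundaries a measured cytosine lay beyond both ends, and 31 of those on the low side and 13 on the high side belonged to another boundary. The most frequent case, 40 of them, had both outer cytosines between 10% and 80%. The outer cytosines were under 10% on the low side and over 80% on the high side in 9 of the 121. In 20 the low state alone went on (under 10% beyond the low cytosine, between 10% and 80% beyond the high one), and in 13 the high state alone. In 27 both outer cytosines were over 80%, so that the low cytosine was single, and in 3 both were under 10%, so that the high cytosine was single. In 7 the outer cytosines were turned, over 80% beyond the low one and under 10% beyond the high one, and in 2 the level was between 10% and 80% beyond the low one and under 10% beyond the high one.

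The boundaries near protein-coding starts with the largest smallest step over the 6 libraries were at Clta, Defb35, Tspan17, Utp4, Dohh, Heatr9, Zfp709 and Dcst1. Clta (clathrin light chain A) had its low cytosine at 44011719 of chromosome 4, at -919 bp from the nearest start (negative values lie upstream), at 0 in all 6 libraries, and its high cytosine 12 bp away at 100% in all 6. Defb35 (a beta-defensin, chromosome 8) was at 0 in all 6 against 90.3% in STD replicate 1 and 100% in the others, 14 bp away. Both pairs lie in repeat sequence and beyond base 76 of their fragments (base 1817 and 5849 for the low cytosine). Dohh (deoxyhypusine hydroxylase, which modifies the translation factor eIF5A) had the low cytosine in an exon, 132 bp downstream of the start on chromosome 10, at 1.96%, 0% and 0% in STD and at 9.43%, 0% and 0% in ENR. Its high cytosine, 14 bp farther, was at 81.6%, 100% and 88.2% in STD and at 90.4%, 100% and 90.9% in ENR. The nearest measured cytosine beyond the low one was at 15.6% and that beyond the high one at 91.7%, so that the high state went on beyond the pair at Dohh.

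Tspan17 (a tetraspanin) and Utp4 (a ribosome biogenesis protein) had the low cytosine in a cut site. Tspan17 was low, 197 bp downstream of the start, at 15.3% in STD replicate 1 and at 0 in the other 5, and high 187 bp away at 86.5% to 100%. Utp4 was low at 15.6%, 0% and 10% in STD and 17.2%, 12.5% and 0% in ENR, and both outer cytosines went on in the same state, at 1.48% and 82.4%. Zfp709, a zinc finger gene, was low at -393 bp from its start with a mean of 2.39%, and its high cytosine, 174 bp away, averaged 87.3%. Its step differed by -15.4 points between ENR and STD, without overlap between the groups. Heatr9 and Dcst1 had the low cytosine at base 75 and base 76 of a cut site, and at Dcst1 the other strand of this CpG averaged 51.8%.

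Inside genes and more than 1 kb from every start, the steadiest boundaries were at Maml2, Cnn2, Sntb1 and Enpp1. In an intron of Maml2 (a coactivator of Notch signalling) the low cytosine was at 1.49% in ENR replicate 1 and at 0 in the other 5 libraries, and the high cytosine, 36 bp away, was at 100% in all 6. The nearest cytosine beyond the low one was at 99.6%, so that a single low cytosine stood between high ones. In an exon of Cnn2 (calponin 2) a low cytosine at 0 in all 6 libraries belonged to 2 boundaries, with high cytosines 32 bp to the left (99.6% on average) and 9 bp to the right (91.5%). Enpp1 (which hydrolyses extracellular ATP) had a cut site cytosine at 3.41%, 4.35% and 0% in STD and at 3.92%, 2.33% and 8.33% in ENR, 21 bp from one at 95.5% to 100%. Outside genes the first by the same rank lay near Olfr1355 and Olfr347, both in repeats with the low cytosine at 0 in all 6 libraries and beyond base 76, and near AC104103.1, where the low cytosine averaged 0.397% and the high one, 5 bp away, 99.0%.

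The closest spacings put both states within one turn of the DNA helix. In 6 boundaries the cytosines were 3 bp apart and in 9 they were 4 bp apart, of which the naming rule gave 4. Near Cfap36 and in Vwa8 the spacing was 3 bp, and near Pramef17 and in the pseudogene Rps19-ps11 4 bp apart. The Pramef17 pair (chr4:143998076-143998101) reads acctttaaacCGggCGtggtggtgca, with the high cytosine on the left at 80.5% to 98.5% and the low one on the right at 0 in all 6 libraries. Cfap36 was high at 50% in STD replicate 2 and at 100% in the other 5. Vwa8, with the most boundaries among the genes that the naming rule allowed, held 3 at 1 locus in an intron, in repeat sequence: its cytosines had means of 86.5%, 4.76%, 2.98%, 88.0% and 7.33% along the plus strand. In ENR replicate 3 the closest Vwa8 pair had a step of 14.3 points, with 28.6% and 42.9%, against 79.5 to 100 points in the other 5 libraries. Cnn2, Enpp6 and Fgfr2 were among 10 such genes with 2 each. The pairs assigned to Fgfr2 lie at 2 loci inside 1 very long gene model and nearest to the starts of Tacc2 and Ctbp2.

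Whether enrichment moved the boundaries was asked with 1 value per mouse. The mean step was 86.2 ± 0.555 points in STD and 87.2 ± 0.729 in ENR (SD, n = 3 each), a difference of 0.982 points (exact permutation test, two-sided, p = 0.2). The low cytosines averaged 4.95% ± 0.922 and 4.28% ± 0.561 (SD, n = 3 each; difference -0.672, exact permutation p = 0.5), and the high ones 91.2% ± 0.462 and 91.5% ± 0.779 (SD, n = 3 each; difference 0.310, exact permutation p = 0.6). Both limits were met in 69.2% ± 2.85 of the boundaries in an STD library and in 71.1% ± 1.06 in an ENR library (SD, n = 3 each; difference 1.96 points, exact permutation p = 0.4). This last direction turned to -0.420 points when kept meant a step over 50 points and to -1.89 when it meant under 20% and over 70%. With 3 mice against 3 this test cannot give a p below 0.1. The STD and ENR libraries overlapped in each of these measures, while 3 of the alternatives separated them and gave the smallest p possible (exact permutation p = 0.1): the step without cut site cytosines (1.05 points), the high side at limits of 5% and 90% (0.731) and the share kept without STD replicate 2 (3.61). The low cytosines outside cut sites, a class chosen after its values were seen and given without a test, also separated the groups, with means of 3.22% ± 0.673 in STD and 2.59% ± 0.0946 in ENR (SD, n = 3 each). The direction for the high side turned to -0.126 points without ENR replicate 2.

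Single boundaries were read from a fit over the whole data. The limma fit of the step tested 455850 neighbouring pairs that vary and called 0 (0% of all; smallest Benjamini-Hochberg adjusted p = 0.829), and none of the 470 boundaries tested. In simulated data this fit missed changes made in few pairs, so that 0 calls do not show that the boundaries were unchanged. At an unadjusted p under 0.05 the fit held 13161 of the 455850 pairs, among them 31 of the 470 boundaries. The same fit of 615152 single cytosines called 0 as well (smallest adjusted p = 0.852), with 16498 at an unadjusted p under 0.05, of which 40 were among the 852 tested cytosines of boundaries. The group means of the step differed by over 25 points in 19 of the 470 boundaries that vary (4.04%, against 3.94% of all pairs that vary), 7 with the larger step in ENR and 12 with the smaller. The STD and ENR libraries did not overlap in 43 of the 470 (9.15%, against 5.72% of all pairs that vary), of which 31 had the larger step in ENR. Among 3 against 3 values without ties, a share of 0.1 of the regroupings separates the groups fully, so that 9.15% is no excess over that share. Ties between libraries prevent a separation, and their part in the lower share of all pairs was not tested.

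Among the 43, the largest differences under the naming rule had their nearest starts at Dppa2, Sgk1, Cntn2 and Gatad2a with larger steps in ENR, and at BB123696, AC122445.1, Ank3 and Lrrc66 with smaller steps. Averaged over the STD libraries alone, each of the pairs with a larger step missed a limit of the rule. Averaged over the ENR libraries alone, each of those with a smaller step did. They were boundaries through the values of the other group, so that their differences are a description. Sgk1 (serum- and glucocorticoid-regulated kinase 1) had steps of 69.4, 75.6 and 52 points in STD and of 95.7, 91.3 and 98 in ENR, a difference of 29.3 points. The boundary lies at -352 bp from the start on chromosome 10, with the low cytosine at 21881832 outside cut sites and the high one at 21881743. The high cytosine carried the difference, at 76%, 82.5% and 52% in STD and at 100%, 91.3% and 98% in ENR, while the low one stayed between 0% and 6.96%. The limma fit across all pairs gave an unadjusted p of 0.00654 and an adjusted p of 0.829.

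The boundary near Dppa2 (a factor of pluripotent cells) differed by 35.5 points, with low values of 20.5%, 6.67% and 30% in STD and 0 in all 3 ENR libraries, and its low cytosine was at base 75 of a cut site. Without STD replicate 3 this difference was 19.3 points. Cntn2 (contactin 2, an axonal adhesion molecule) differed by 26.4 points, at -19669 bp from its start. Gatad2a (a subunit of the NuRD complex) differed by 23.0 points in an intron, with the low cytosine at base 76 of a cut site. Smaller steps in ENR were measured with the nearest start at BB123696 (-26.3 points, 23773 bp away), AC122445.1 (-25.3, 3801 bp away) and Lrrc66 (-19.7, 59673 bp away), and in Ank3 (ankyrin G of the axon initial segment, -23.2). Of these 4, the low cytosine was at base 75 or 76 of a cut site in AC122445.1, Ank3 and Lrrc66, and at Ank3 the other strand of this CpG averaged 95.7%. The Ank3 difference was -15.3 points without ENR replicate 3. None of the 8 passed the adjusted test, which called no pair and does not show that they were unchanged. The rule went by the nearest start and passed over symbols of the form Gm with a number or ending in Rik, so that 3 larger steps in ENR (37.6, 34.0 and 32.6 points) and 1 smaller step were left out. The smaller one, named after its values were seen, lies in an intron of Adcy5 (an adenylyl cyclase) and differed by -28.01 points, with the low cytosine at base 76 of a cut site. Without ENR replicate 3 this difference was -11.3 points.

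**Figure D5:**
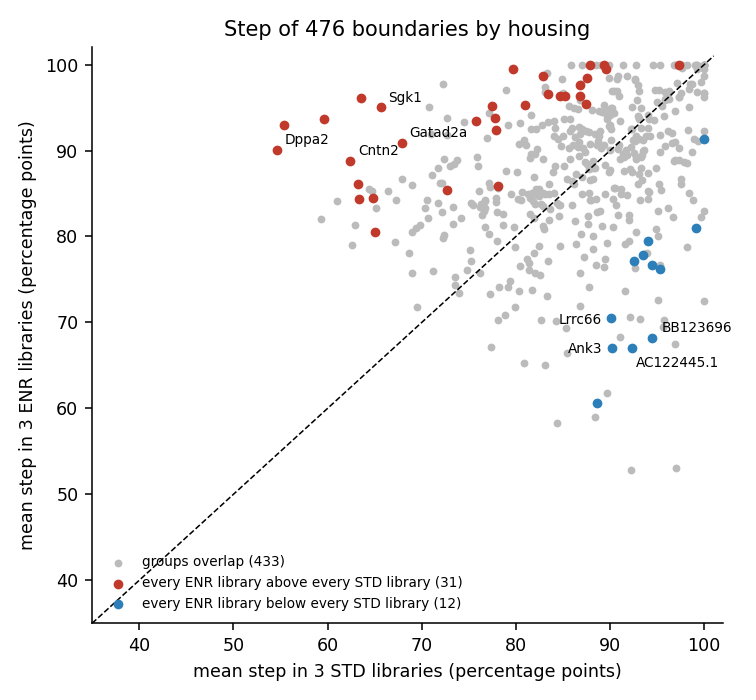
Mean step of each of the 476 boundaries in the 3 STD libraries (x axis, percentage points) and in the 3 ENR libraries (y axis), with a dashed line of equal steps. Coloured points are the 31 boundaries with every ENR library above and the 12 with every ENR library below all STD libraries.

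Genes of the lists for this tissue were counted beside all protein-coding genes. Within 5 kb of a start, 125 of 15789 protein-coding genes with a measured pair had one (0.792%). Of the 10 genes taken from the study's text, all with measured pairs, Fgfr1 had one (10%), and of 42 developmental transcription factors, Nkx2-2 had one (2.38%). Granule cell genes (19 with measured pairs), glutamate and GABA receptors (34), glial genes (17) and imprinted genes (24) had none. At a share of 0.792%, lists of this size are too short to show a lack. Fgfr1, a receptor of fibroblast growth factors, held its boundary in an exon 454 bp from a start on chromosome 8. Its low cytosine was at 10%, 12.2% and 28.6% in STD and at 7.59%, 0% and 0% in ENR, and its high cytosine, 82 bp away, at 89.7%, 80.7% and 73.5% in STD and at 84.5%, 100% and 79.7% in ENR. Averaged over the STD libraries alone, the low cytosine was above the limit of 10%, so that the pair passed through its ENR values. The steps of both groups overlapped, with a difference of 21.1 points (limma across all pairs, unadjusted p = 0.108, adjusted p = 0.829), and of 11.4 without STD replicate 3 and 13.9 without ENR replicate 2.

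The boundary near Nkx2-2, a homeobox factor of oligodendrocyte and ventral neural progenitors, lay in an exon on chromosome 2, at -908 bp from the start of Nkx2-2os and 2926 bp downstream of that of Nkx2-2. Its low cytosine was at 18.9%, 16.7% and 16.7% in STD and at 3.85%, 0% and 0% in ENR, without overlap. The high cytosine, 16 bp away, was at 94.1%, 90.9% and 94.4% in STD and at 100%, 100% and 84.2% in ENR. The step was 17.7 points larger in ENR (limma unadjusted p = 0.0180, adjusted p = 0.829). The other strand of the low CpG averaged 57.3% and that of the high CpG 30.6%, so that the order was turned on the other strand. The nearest cytosine beyond the low one averaged 10.9% and that beyond the high one 22.6%, so that the high state did not go on beyond the pair.

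The sequence around the boundaries was poor in CpG, as was that around pairs with a step of 30 to 70 points. Leaving out low cytosines at base 75 or 76, the 100 bases beyond the low cytosine held 2.57 CpGs on average and those beyond the high one 2.91, against 6.57 and 6.59 over all pairs and 2.25 and 2.55 over pairs with a step of 30 to 70 points. The low side had more CpGs than the high side in 103 of 298 boundaries (34.6%), against 43.0% of all pairs and 33.0% of those with a step of 30 to 70 points, and G and C made up 52.1% and 51.6% of the bases. The letters GGGCGG (a GC box), searched on both strands between the cytosines with 20 bases added on each side, occurred in 17 of the 298 (5.70%), in 13.1% of all pairs of the same lengths and in 6.74% of the pairs with a step of 30 to 70 points, whose lengths were not matched. CCAAT occurred in 42 (14.1%, against 11.0%), CCGGAA, the core of ETS factor sites, which can overlap a cut site, in 46 (15.4%, against 11.7%) and CACGTG in 9 (3.02%, against 1.95%).

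Means close to a limit decided over the membership of some pairs. The 2 boundaries just inside the low limit had low means of 9.999% and 9.994%, and the 2 pairs just outside had 10.02% and 10.03%. Just inside the high limit the high means were 80.04% in both, and just outside 79.95% and 79.88%. One of those just inside, on chromosome 7, had steps of 100, 66.7 and 86.2 points in STD and of 4.28, 81.8 and 88.9 in ENR, the smallest step of any boundary in any library.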

How the data were processed

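RRBS was carried out on the dentate gyrus of 3 STD and 3 ENR mice with 1 library each. Per the labels and the study's methods, the authors trimmed reads, aligned them to mm10 and kept cytosines with at least 10 reads. The submitters' processing notes name Trim Galore 0.4.0, cutadapt 1.8.1, Bismark 0.16.1 and methylKit 1.5.2, and the study's methods give other versions of Trim Galore and Bismark. The deposited values are methylation percentages (percent, 0 to 100) per cytosine and library, with strands kept apart and no read numbers, so that depth is unknown.

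The 866851 autosomal of 890041 cytosines were sorted by position and neighbouring rows 3 to 200 bp apart were paired. Cut sites, repeats (soft-masked sequence), CpG content and motifs were read from GRCm38.p6 (the mm10 coordinates) and transcription starts and genes from GENCODE M21. All pairs were fitted with limma 3.58.1 in R 4.3.3 (variance trend, Benjamini-Hochberg adjustment; a call needed an adjusted p under 0.05 and a difference over 25 points). Group means were compared by two-sided exact permutation over 20 regroupings in Python 3.11.15 (numpy 2.4.6). The limma fit was tested on simulated data, in which it found changes made in many pairs and missed changes made in few. ENR mice lived together in an enclosure and STD mice in groups in smaller cages, so that the enclosure and the housing cannot be told apart.

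Boundaries were named by rank of the smallest step over the 6 libraries (the first 8 near protein-coding starts, 4 in gene bodies and 3 outside genes), as the 4 with the shortest spacing, as the 4 largest differences without overlap in each direction, as the 4 genes with the most boundaries and as those near listed genes. Symbols of the form Gm with a number or ending in Rik, mostly judged at the nearest start, and chromosome 18 were passed over. The members, gene lists and rules were chosen with earlier results of these data known, and the split by base 75 and 76 after the values were seen. Alternatives covered the limits, spacing, strands, repeats, cut sites, the variance model, normalization, the replicate block and each library left out.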

Additional observations from a re-analysis of the deposited data

How the results depend on the processing

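The number of boundaries followed the choice of limits: 161 at under 5% and over 90%, 1770 at under 20% and over 70%, 294 at most 50 bp apart, 306 on the same strand, 728 by the median of the 6 libraries, 89 with limits met in every library, 291 without repeat cytosines and 121 without cut site cytosines. It was 298 without low cytosines at base 75 or 76, an alternative chosen after seeing the data, and 488 to 521 with 1 library left out. The ENR minus STD difference of the mean step was between 0.616 (without ENR replicate 2) and 1.34 points with 1 library left out, that of the low side between -1.01 and -0.147 (the last without STD replicate 1), that of the high side between -0.126 and 0.623 and that of the share kept between 1.09 (without STD replicate 3) and 3.61 (without STD replicate 2). The share kept turned to -0.420 points when kept meant a step over 50 and to -1.89 when it meant under 20% and over 70%, and the cause was not tested. The share near a start (12.2% within 1 kb of any) was 17.6% within 2 kb, 6.09% for protein-coding starts, 7.14% with 1 start per gene and, chosen after seeing the data, 16.5% without repeat pairs. The mean level beyond the high side was 60.6% on the same strand and, chosen after seeing the data, 60.7% without low cytosines at base 75 or 76. The limma fits called 0 pairs and 0 cytosines under every alternative run (smallest adjusted p for pairs 0.0892, with quantile normalization). With the replicate number as a block the difference of the mean step was 0.982 points (exact sign flips, p = 0.25, the smallest that 3 pairs can give), the limma fits called 0, and no call changed. Among the alternatives of the group means, 3 separated the groups fully (exact permutation p = 0.1, the smallest possible): the step without cut site cytosines (1.05 points), the high side at under 5% and over 90% (0.731) and the share kept without STD replicate 2 (3.61). The mean of low cytosines outside cut sites, a class chosen after seeing the data, also separated them (-0.627 points, given without a test). Deviations of same-numbered libraries correlated at 0.0340 to 0.132 over all autosomal cytosines and at -0.0907 to -0.00231 over the steps, and not every library went best with its own number, so that the numbers were not taken to pair mice. Unknown read numbers limit each single value.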
